A study of Mus musculus with 16 samples.

Results

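Chromatin accessibility was examined over 8 genes of insulin and insulin-like growth factor (IGF) signalling in pancreatic islets, the receptor genes Insr and Igf1r, the adaptor genes Irs1 and Irs2, the phosphoinositide 3-kinase subunit gene Pik3r1, the kinase genes Akt1 and Akt2 and the transcription factor gene Foxo1. The genes were chosen by name. Overlapping or touching peaks of the 16 sample lists were merged into 347712 regions on chromosomes 1 to 19, and those that met the annotated gene body or the 3 kb upstream of it were kept. This gave 215 regions over the 8 genes, of which 39 were listed in all 16 samples, against 40940 such shared regions in all.

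The assay was ATAC-seq, where a transposase places sequencing adapters into accessible DNA, so that open regions collect reads and appear as peaks. The samples came from inbred mice of the strains 129S1_SvImJ (129), A_J (AJ), C57BL/6J (B6), NOD_ShiLtJ (NOD) and NZO_HlLtJ (NZO), which are classical laboratory strains, and CAST_EiJ (CAST), PWK_PhJ (PWK) and WSB_EiJ (WSB), which are wild-derived. Each strain gave 1 female and 1 male sample of 50 islets, so the replicates of a strain were its 2 sexes, and no treatment, age or batch was given in the labels. Each group was thus a whole islet preparation, in which the share of each cell type and the accessibility per cell cannot be told apart.

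Insulin and the IGFs bind receptor tyrosine kinases of one family. The activated receptors phosphorylate the insulin receptor substrates, which recruit phosphoinositide 3-kinase through its regulatory subunit, and the lipid that this enzyme makes brings Akt kinases to the membrane. Akt phosphorylates FoxO factors and keeps them out of the nucleus, and in islet beta cells this route is known for its part in growth, survival and insulin secretion.

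Between 77887 (AJ male) and 167051 (WSB female) peaks were listed per sample on these chromosomes. Their median summit signal over the shared regions was lowest in the PWK male (32) and highest in the CAST male (136), so each value below is a scaled signal, the highest summit of a sample in a region divided by that median. A scaled signal of 1 is therefore a typical shared region, and 0 says only that no peak passed the threshold of the authors. From 8 to 9 of 12 islet endocrine markers had a listed promoter region in each sample, with summed scaled signals of 14.1 to 20.0. Ins1, Ins2, Iapp, Pdx1, Nkx6-1, Mafa, Gcg and Chga were listed in all 16 samples, Hhex in 10 and Sst in 1, and Ppy had no listed promoter region. Of the markers of other cells, 0 to 3 of 8 acinar, 0 to 3 of 4 duct, 0 to 2 of 4 endothelial, 0 to 3 of 6 leukocyte and 0 to 2 of 4 fibroblast and stellate genes were listed per sample. The NZO male carried the highest sums of the acinar (1.18), duct (2.15), endothelial (0.764) and leukocyte (1.22) lists, against sums of 0 in several others. Ctrb1, Pnlip, Cel, Ptf1a, Tie1, Cd3e, Cd79a and Pdgfrb had no listed promoter region, Sox9, Krt19, Pecam1, Itgam and Spi1 had one in 1 sample each, Ptprc in 3 and Krt7 in 10. The part of these cells in the results below was not tested.

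To ask how much open chromatin each gene carried, regions were counted. Igf1r had 72 regions over its 280842-base gene body, more than 98.3% of the 20807 protein-coding genes, and 16 were shared by all samples. Pik3r1 had 38 regions with 7 shared, Insr 37 with 6, Foxo1 30 with 2, Irs1 15 with 3, Akt2 15 with 3 and Akt1 7 with 1. Irs2 had a single region, which was shared. Per 10 kb of gene body and upstream sequence the order was different, with 4.19 regions for Pik3r1, 3.41 for Foxo1, 2.91 for Akt1, 2.87 for Akt2, 2.54 for Igf1r, 2.45 for Irs1, 2.3 for Insr and 0.373 for Irs2. The strongest summit lay in an intron for 188 of the 215 regions and in an exon for 16. Of the 215 regions 78 (36.3%) were listed in 1 sample only, against 46.4% of all regions, and 39 (18.1%) in all 16, against 11.8%. The WSB female alone gave 26 of the 78 single-sample regions (33.3%, against 12.2% of such regions in all) and the NZO male 14 (17.9%, against 20.5%). Every shared region of the 8 genes was also in the reproducible peak list of at least 1 strain, and 20 of the 39 were in those of all 8 strains. These shares were not computed over all shared regions, so they say nothing particular about the 8 genes.

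**Figure D1:**
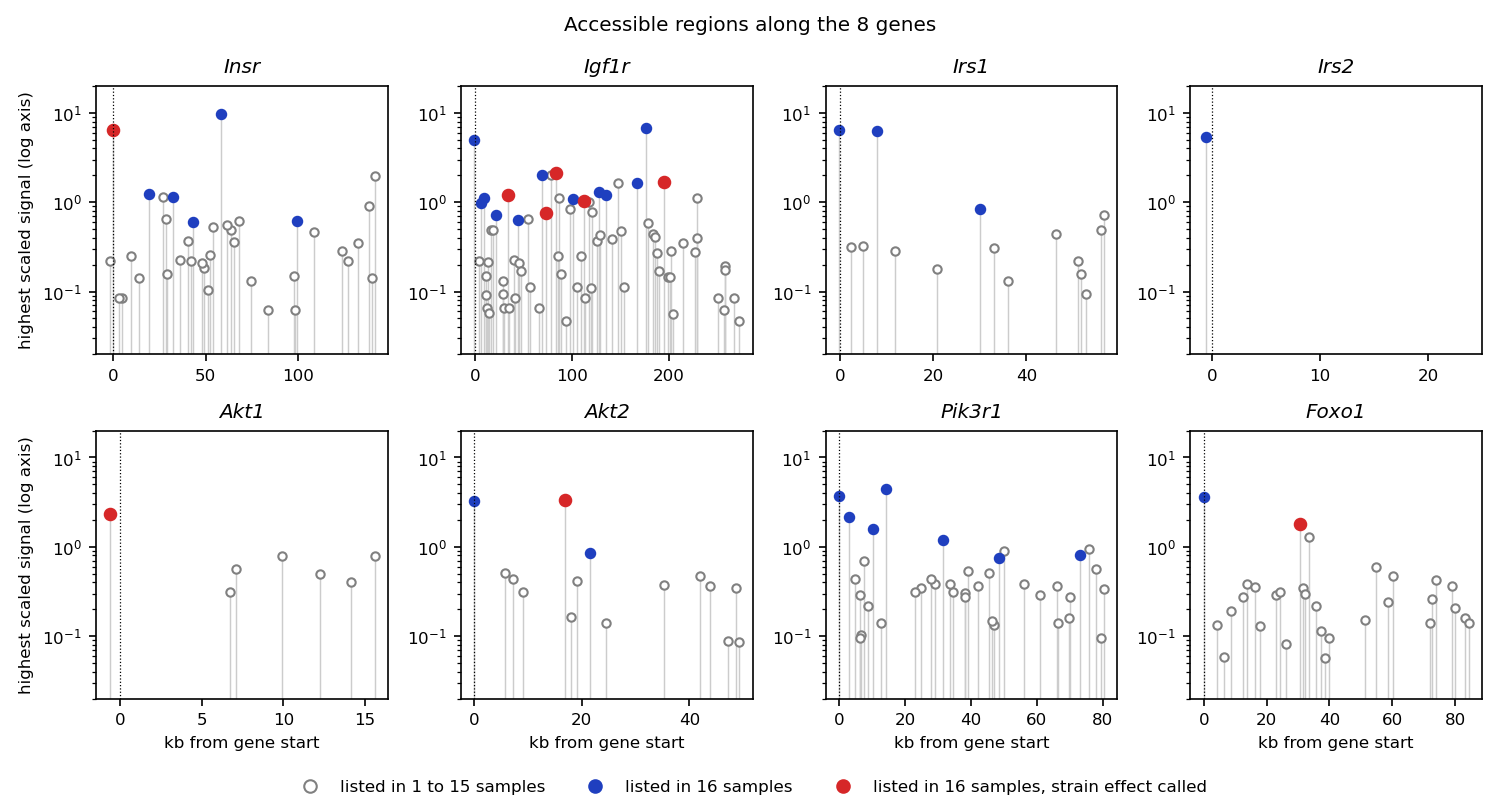
Each point is a region of 1 gene, placed by the distance of its strongest summit from the gene start (kb, positive into the gene) and by the highest scaled signal of any sample (log axis). Open circles are regions listed in 1 to 15 samples. Blue circles are the 30 shared regions without and red circles the 9 shared regions with a called strain effect. Insr, Igf1r, Pik3r1 and Akt2 each carry an intronic region whose point lies above that of the promoter region (3.31 against 3.29 in Akt2).

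For strain, 9 of the 39 shared regions (23.1%) were called by limma's moderated F test at an adjusted p under 0.05, against 35.7% of all 40940 shared regions. The regions over these genes were thus called no more often than shared regions at large, and the median difference between the highest and the lowest strain was 0.93 on the log2 scale, against 1.11 over all shared regions. Of the 8 promoter regions 2 were called, and so were 21.8% of the 9634 shared promoter regions of protein-coding genes. Away from gene starts, 7 of 31 regions over the 8 genes were called, against 40.0% of 31306. The called regions lay in Igf1r (5), Insr, Akt1, Akt2 and Foxo1 (1 each), and none lay in Irs1, Irs2 or Pik3r1, where the smallest adjusted p-values by limma were 0.0959, 0.388 and 0.105. With 1 sample left out, the count fell without either CAST sample or the WSB female and rose without NZO female. The count over all shared regions moved the same way.

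The promoter region of a gene is the region over its annotated start. All 8 promoter regions were listed in all 16 samples and in the reproducible lists of all 8 strains, a share not computed for other promoter regions. By median scaled signal the order was Irs1 (5.02), Insr (4.27), Irs2 (3.24), Igf1r (2.79), Pik3r1 (2.33), Akt2 (2.13), Foxo1 (2.08) and Akt1 (1.43). Irs1 exceeded 84.4% of the 9634 shared promoter regions and Akt1 exceeded 35.6%. The sample ranges of neighbours in this order overlapped throughout. The receptor and adaptor genes came before Pik3r1 and the kinase and factor genes in this order. Whether the order has to do with the place of a gene in the route was not tested.

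**Figure D2:**
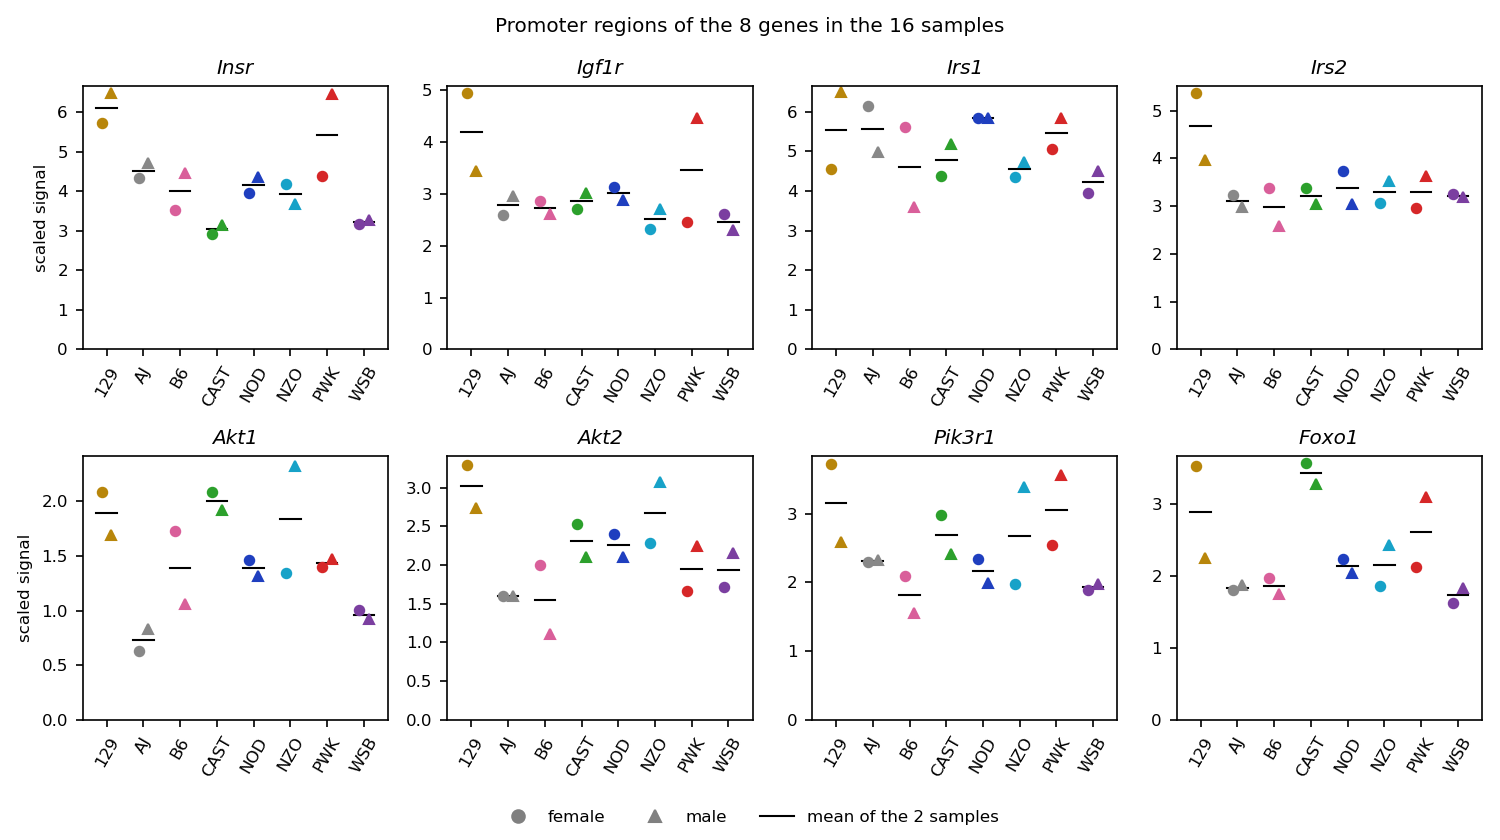
Scaled signal (linear axis from 0) of the promoter region of each gene in the 8 strains, with circles for females, triangles for males and a bar for the mean of the 2 samples. The 129 female was the highest of 16 samples for Igf1r, Irs2, Akt2 and Pik3r1, and both AJ samples were the lowest for Akt1.

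Insr, on the minus strand of chromosome 8, encodes the insulin receptor. Its promoter region (chr8:3278100-3280823, mm10), whose strongest summit fell in the untranslated part of exon 1, had female and male scaled signals of 5.72 and 6.49 in 129, 4.34 and 4.71 in AJ, 3.54 and 4.47 in B6, 2.93 and 3.15 in CAST, 3.97 and 4.35 in NOD, 4.20 and 3.69 in NZO, 4.40 and 6.47 in PWK, and 3.17 and 3.27 in WSB. The CAST samples lay below all 14 others and the 129 samples were high, with the PWK male between them. Strain was called (limma F test, adjusted p = 0.0417), with 0.99 between 129 and CAST on the log2 scale. Of 7 alternative processings 2 kept this call. The adjusted p by the same test was 0.519 without centring of the samples and 0.716 with the deposited mean signal in place of the summit. The call stood at the edge of the threshold and held in 4 of the 16 fits that left out 1 sample, with an adjusted p of up to 0.125 without the CAST male.

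The strongest region of Insr was not its promoter. A region in intron 2, 58.4 kb into the gene (chr8:3220380-3222579), had a median scaled signal of 7.40 and was higher than the promoter region in 16 of 16 samples, by a ratio of 1.34 to 2.11. It exceeded 99.3% of all shared regions away from gene starts. The sequence at its strongest summit is shown since no other region of the 8 genes outside a promoter was as high.

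Insr +58.4 kb, chr8:3221088-3221287, plus strand: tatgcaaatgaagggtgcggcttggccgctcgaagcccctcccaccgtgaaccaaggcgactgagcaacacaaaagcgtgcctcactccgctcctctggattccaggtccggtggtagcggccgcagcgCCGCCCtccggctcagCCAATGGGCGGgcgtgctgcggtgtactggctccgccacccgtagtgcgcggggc

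In this and the later sequences, taken from RefSeq's GRCm38.p6 assembly, which is mm10, capitals mark matches on either strand to 8 short motifs. These were the core GTAAACA of FoxO and FoxA factors, the homeodomain core TAATTA, the NeuroD1 E-box CAGATG, the AP-1 site TGANTCA, the GC box GGGCGG, the box CCAAT, the cAMP response element TGACGTCA and the E-box CACGTG, none of which contains another. The 200 bases at the Insr summit held 2 GC boxes and 1 CCAAT box. Of the windows at the 31306 shared regions away from gene starts, 7.12% held a GC box and 23.45% a CCAAT box. The scaled signals of this region were 7.66 and 8.96 in 129, 7.86 and 9.84 in AJ, 6.80 and 7.74 in B6, 4.5 and 5.07 in CAST, 8.35 and 7.33 in NOD, 6.84 and 5.78 in NZO, 7.47 and 9.25 in PWK, and 5.86 and 5.61 in WSB, female first. Both CAST samples were below all others. CAST against the other 7 strains was called at -0.63 ± 0.18 (log2, SE; limma, adjusted p = 0.0239), a difference that turned to 0.16 without centring of the samples. The F test over all strains did not pass (adjusted p = 0.0663, limma).

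The remaining 4 shared regions of Insr were weaker, with medians of 0.294 to 0.705, and none was called. The nearest to a call lay 32.3 kb into the gene in intron 2, with a range over strains of 1.84 on the log2 scale (limma F test, adjusted p = 0.0506). Its values were 0.207 and 0.217 in 129, the lowest of all samples, and 0.630 and 1.02 in NZO, while the PWK female (1.15) and the PWK male (0.344) differed by more than most strains. A region 26.7 kb into the gene was listed in both NZO samples (0.321 in the female, 1.15 in the male) and in no other, and 1 at 65.4 kb in both CAST samples alone (0.123 and 0.360). Neither was in a reproducible strain list, and the NZO male is the sample with the highest acinar, duct and leukocyte sums given above.

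Igf1r encodes the IGF-1 receptor, on the plus strand of chromosome 7. Its promoter region (chr7:67950070-67955703) gave scaled signals of 4.95 and 3.44 in 129, 2.60 and 2.96 in AJ, 2.86 and 2.60 in B6, 2.72 and 3.02 in CAST, 3.13 and 2.89 in NOD, 2.32 and 2.71 in NZO, 2.45 and 4.47 in PWK, and 2.60 and 2.31 in WSB, female first. Every strain overlapped its neighbour in the order of means, and strain was not called (limma F test, adjusted p = 0.353). The 15 other shared regions lay in introns 1 and 2, between 5.4 and 195 kb from the gene start, and 5 of them were called for strain. That is 33.3% of the 15, against the 40.0% of all shared regions away from gene starts. The sequences at 4 of these summits are shown, those of the 3 smallest adjusted p-values and that of the strongest region.

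Igf1r +195 kb, chr7:68147934-68148133, plus strand: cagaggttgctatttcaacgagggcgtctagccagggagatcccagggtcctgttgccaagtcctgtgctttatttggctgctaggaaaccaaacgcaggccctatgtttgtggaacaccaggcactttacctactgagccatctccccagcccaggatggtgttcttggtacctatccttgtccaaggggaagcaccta
Igf1r +33.3 kb, chr7:67986040-67986239, plus strand: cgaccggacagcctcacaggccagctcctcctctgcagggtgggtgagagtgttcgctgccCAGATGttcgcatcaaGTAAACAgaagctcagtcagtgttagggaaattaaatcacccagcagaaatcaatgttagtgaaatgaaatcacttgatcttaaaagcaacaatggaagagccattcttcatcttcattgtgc
Igf1r +112 kb, chr7:68065123-68065322, plus strand: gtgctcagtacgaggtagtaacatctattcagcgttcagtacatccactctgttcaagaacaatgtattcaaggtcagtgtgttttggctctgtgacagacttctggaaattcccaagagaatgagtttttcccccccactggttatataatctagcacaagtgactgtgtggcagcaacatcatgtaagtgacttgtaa
Igf1r +176 kb, chr7:68129124-68129323, plus strand: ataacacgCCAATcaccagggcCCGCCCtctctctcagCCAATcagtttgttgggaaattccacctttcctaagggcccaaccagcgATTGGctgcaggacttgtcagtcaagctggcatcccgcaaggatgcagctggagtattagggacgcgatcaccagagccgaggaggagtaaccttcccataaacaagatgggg

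The region 195 kb into the gene (chr7:68147778-68149199, intron 2), which also covers the start of another annotated transcript, had the smallest adjusted p of the 8 genes (limma F test, 0.00299). Its scaled signals were 0.340 and 0.382 in CAST, 0.581 and 0.688 in PWK, 0.721 and 0.939 in NOD, 1.05 and 0.739 in WSB, 0.975 and 1.11 in NZO, 1.22 and 1.33 in 129, 1.70 and 1.01 in B6, and 1.32 and 1.42 in AJ, female first. Both CAST samples lay below the other 14, and PWK came next above them. CAST against the other 7 strains was -1.47 ± 0.22 (log2, SE; limma, adjusted p = 0.0004), the largest difference of a strain among the 39 regions, and it was called in 16 of 16 fits with 1 sample left out. Without the CAST strain the F test no longer passed (limma, adjusted p = 0.0964). The printed window held none of the 8 motifs, and 19% of its bases were marked as repeats in the assembly.

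In intron 1, the region 33.3 kb into the gene (chr7:67985246-67986681) was low in NZO, with 0.519 in the female and 0.418 in the male, both below all 14 other samples. It was high in CAST, with 1.22 and 1.18, both above all others. The remaining strains lay between 0.531 (PWK male) and 1.17 (NOD female). Strain was called (limma F test, adjusted p = 0.00901), with NZO at -0.93 ± 0.17 (adjusted p = 0.0122) and CAST at 0.59 ± 0.17 (adjusted p = 0.0262) against the other 7. The F test passed in all 16 fits with 1 sample left out and in all 7 alternative processings. Its window held a FoxO and FoxA core, found in 7.67% of windows at shared regions away from gene starts, and a NeuroD1 E-box, found in 22.89%.

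The region 112 kb into the gene (chr7:68064637-68065322, intron 2) showed another order of strains. CAST (1.00 and 0.971) and PWK (0.839 and 0.906) were high, NZO (0.358 and 0.364) was low and WSB (0.245 and 0.307) was below all other samples. The 129 female (1.03) and male (0.522) and the B6 female (0.810) and male (0.386) differed widely, while AJ (0.739 and 0.709) and NOD (0.616 and 0.488) lay between. Strain was called (limma F test, adjusted p = 0.00908), with WSB at -1.22 ± 0.25 (adjusted p = 0.0117) and CAST at 0.84 ± 0.25 (adjusted p = 0.0293). With regions listed in at least 12 samples in the fit, the adjusted p was 0.0510. No motif of the set was found in its window.

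Of the other called regions, the region 72.5 kb into the gene was low in PWK (0.226 and 0.188, below the 14 others at 0.330 to 0.759), with a difference of -1.26 ± 0.25 (limma, adjusted p = 0.00518). That at 83.8 kb was high in WSB (2.02 and 2.14, above the 14 others at 0.546 to 1.77), with a difference of 0.96 ± 0.25 (limma, adjusted p = 0.0434). Their F tests gave adjusted p-values of 0.0281 and 0.0448, and the call was kept in 13 and in 6 of 16 fits with 1 sample left out. Each of these 2 F test calls was also kept in 5 of 7 alternative processings. Over the 5 called regions away from the promoter, CAST was thus called low at 195 kb and high at 33.3 and 112 kb. WSB was called low at 112 kb and high at 83.8 kb. NZO was called low at 33.3 kb and PWK low at 72.5 kb. A further 2 regions were called in the comparison of a single strain alone, CAST high at 135 kb (0.70 ± 0.23, limma, adjusted p = 0.0464) and PWK low at 167 kb (-0.66 ± 0.19, limma, adjusted p = 0.0427). These calls held in 5 and in 4 of 16 fits with 1 sample left out.

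The strongest region of Igf1r lay 176 kb into the gene in intron 2 (chr7:68127664-68130544). Its median scaled signal of 4.78 was above the promoter region of the same gene, and it was the higher of the pair in 16 of 16 samples, by a ratio of 1.07 to 2.15. Values ran from 3.48 in the B6 male to 6.78 in the 129 female, and strain was not called (limma F test, adjusted p = 0.168). Its window held 1 GC box and 3 CCAAT boxes. Both kinds were also found at the intronic regions Insr +58.4 kb, Irs1 +7.99 kb and Akt2 +16.8 kb. The most accessible intronic region of both receptor genes was thus stronger than the promoter region in 16 of 16 samples. The F test over strains did not pass at either region. In Pik3r1 and in Akt2 an intronic region was above the promoter region in 7 of 16 samples.

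Not all of Igf1r was listed everywhere. A region 98.0 kb into the gene was listed in both samples of 7 strains, from 0.142 in the CAST female to 0.836 in the AJ male, and in neither PWK sample. A region at 40.4 kb was listed in WSB alone (0.217 and 0.227) and was in the reproducible list of that strain. Over the 8 genes, 11 of the 176 regions not shared by all samples (6.25%) were listed in both samples of some strains and in no sample of the others, against 8.46% of 306772 such regions in all. In 8 of the 11 the listed strains were CAST, PWK or WSB, alone or together, and in 1 they were these 3 and B6. The 8 are 72.7% of the 11, against 62.1% over all 25956 regions of this kind.

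**Figure D3:**
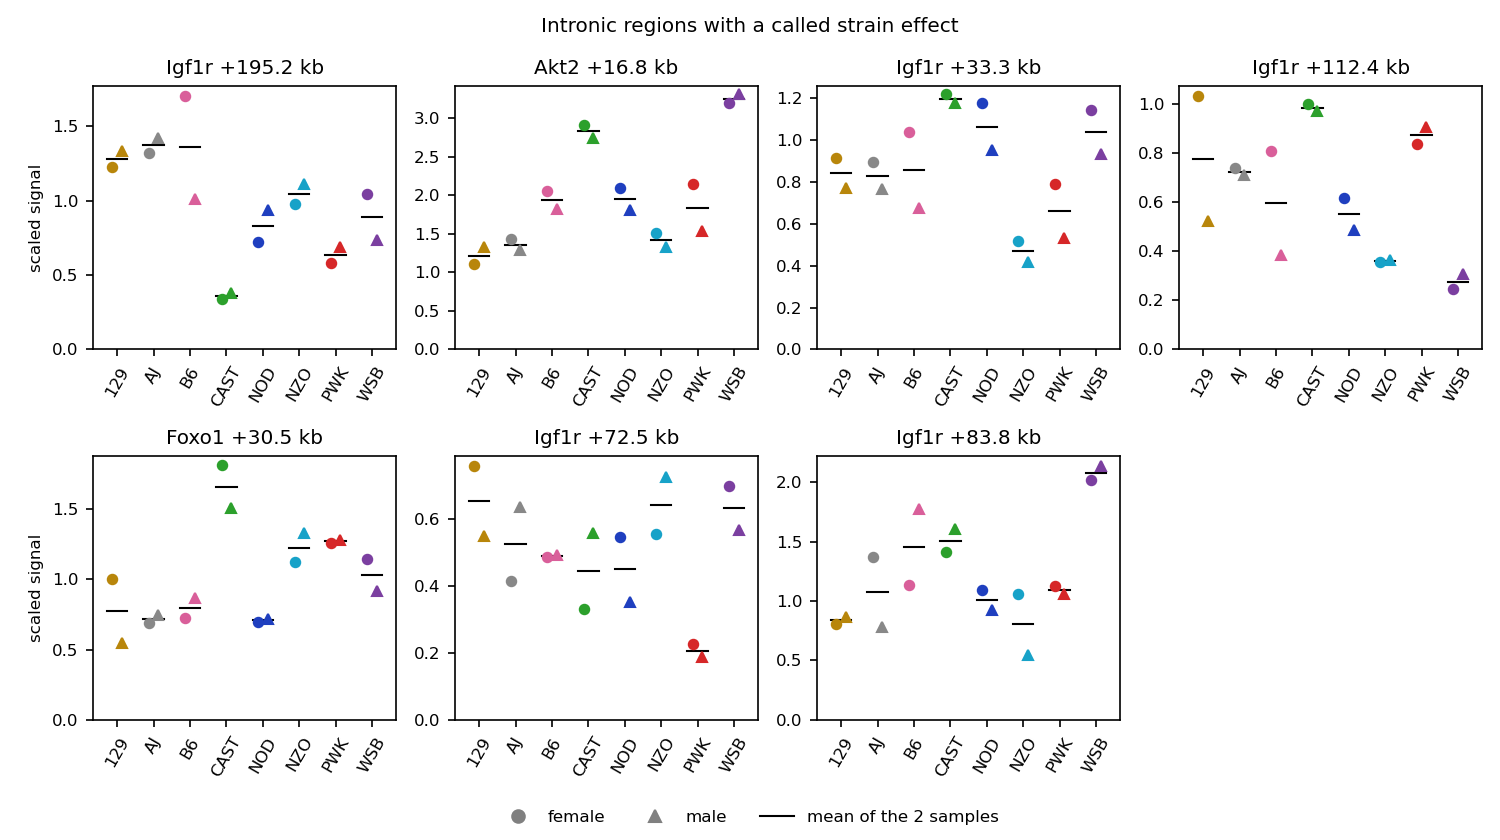
Scaled signal (linear axis from 0) of the 7 intronic regions with a called strain effect, with circles for females, triangles for males and a bar for the mean of the 2 samples of a strain. CAST lay below all other samples at Igf1r +195 kb and above them at Igf1r +33.3 kb and Foxo1 +30.5 kb, WSB lay above them at Akt2 +16.8 kb and Igf1r +83.8 kb.

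Irs1 and Irs2 encode the docking proteins that link the receptors to phosphoinositide 3-kinase. The promoter region of Irs1 (chr1:82289659-82294465, minus strand gene) was the highest of the 8, at 4.55 and 6.51 in 129, 6.15 and 4.98 in AJ, 5.62 and 3.59 in B6, 4.38 and 5.19 in CAST, 5.84 and 5.84 in NOD, 4.36 and 4.75 in NZO, 5.07 and 5.84 in PWK, and 3.95 and 4.51 in WSB, female first. The strains overlapped throughout, with a range of 0.46 on the log2 scale, the smallest among the 8 promoters (limma F test, adjusted p = 0.659). A region in intron 1, 7.99 kb from the gene start, came close to it, with a median of 3.92 (2.55 to 6.31) and a value above the promoter in 1 of 16 samples (limma F test, adjusted p = 0.455). The shared region of smallest adjusted p lay in intron 1, 29.95 kb from the gene start, with the highest values in PWK (0.694 and 0.844) and the lowest in the AJ male (0.109), next to an AJ female of 0.462 (limma F test, adjusted p = 0.0959). A region over exon 2, 56.1 kb from the start, was listed in the 6 wild-derived samples (0.147 to 0.484) and in none of the 10 classical samples. Of the reproducible strain lists, only that of WSB held it.

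Irs2 stood apart in form. A single region of 34185 bases (chr8:10977459-11011643) covered the whole 23778-base gene, its flanks and a part of the neighbouring gene 9530052E02Rik, and it was by far the widest of the 215 regions, whose median width was 322 bases. In the 129 female and both CAST samples it was a single peak of 33974 to 34067 bases, whereas the B6 male had 17 separate peaks that covered 48.1% of it and the NZO male 12 that covered 63.9%. The strongest summit lay upstream of the gene in every sample. The 250 bases before the RefSeq starts of both adaptor genes are shown for comparison.

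Irs1 promoter, chr1:82291440-82291689, minus strand: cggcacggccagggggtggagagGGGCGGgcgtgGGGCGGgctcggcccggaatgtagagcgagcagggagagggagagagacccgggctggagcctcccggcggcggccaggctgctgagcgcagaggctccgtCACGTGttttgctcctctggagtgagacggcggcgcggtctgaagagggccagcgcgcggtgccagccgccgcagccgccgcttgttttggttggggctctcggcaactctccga
Irs2 promoter, chr8:11008930-11009179, minus strand: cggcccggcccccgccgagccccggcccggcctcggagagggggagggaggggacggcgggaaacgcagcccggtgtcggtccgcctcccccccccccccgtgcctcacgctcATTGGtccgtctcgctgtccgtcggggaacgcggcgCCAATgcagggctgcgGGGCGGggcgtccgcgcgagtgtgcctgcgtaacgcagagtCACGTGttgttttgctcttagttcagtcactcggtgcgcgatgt

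Both sequences were rich in G and C (72.4% and 72.8%, against a median of 56.4% over 19174 coding promoters), and both held GC boxes and 1 E-box. GC boxes were found in 44.6% and E-boxes in 6.82% of all such promoter sequences. Irs2 had CCAAT boxes as well, which 34.7% of promoters held. The scaled summit signal of Irs2 was 5.38 and 3.97 in 129, 3.23 and 2.98 in AJ, 3.38 and 2.59 in B6, 3.39 and 3.05 in CAST, 3.73 and 3.04 in NOD, 3.06 and 3.53 in NZO, 2.97 and 3.63 in PWK, and 3.26 and 3.19 in WSB, female first. The 2 samples of 129 were above all others, the rest overlapped, and strain was not called (limma F test, adjusted p = 0.388). When the summits of all peaks in a region were summed, the adjusted p by limma fell to 0.00545; these sums were 3.39 and 3.05 in CAST, with 1 peak per sample, and 9.25 and 12.1 in NZO, with 10 and 12.

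**Figure D4:**
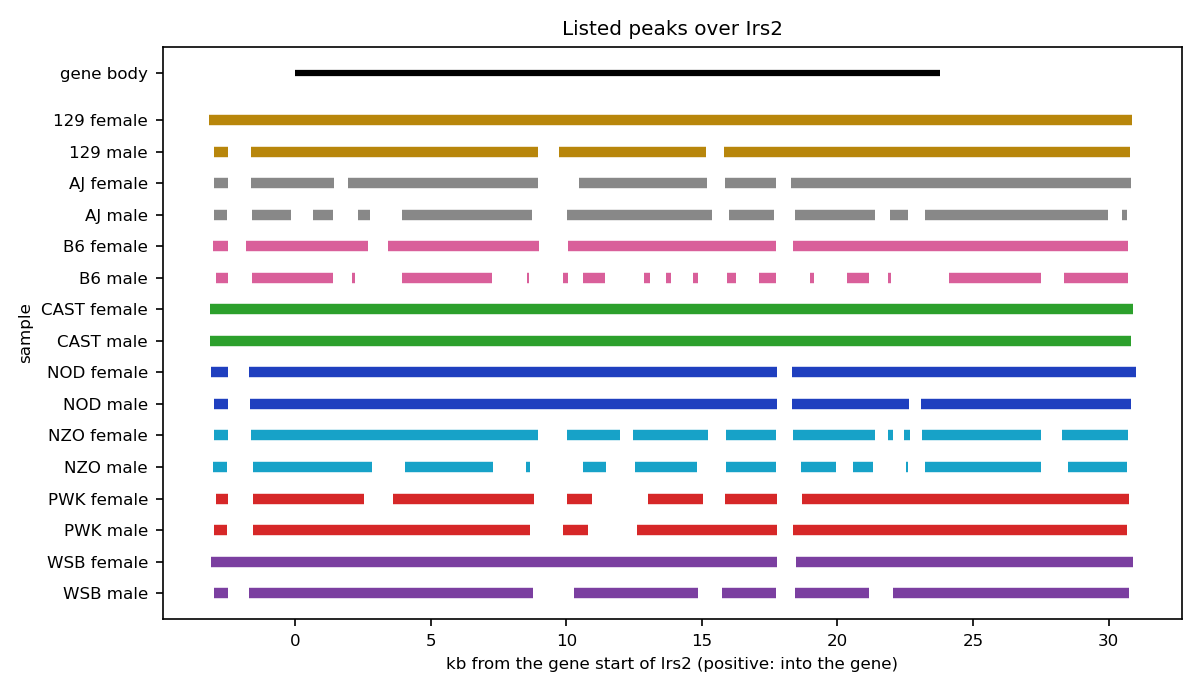
Peaks listed over Irs2 in each of the 16 samples, drawn to scale as bars by distance from the gene start (kb, positive into the gene), with the annotated gene body as a black bar. The 129 female and both CAST samples show 1 unbroken peak, and the B6 male shows 17.

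Pik3r1 encodes the regulatory subunit of phosphoinositide 3-kinase that binds the phosphorylated adaptors. Its promoter region (chr13:101766240-101769108, minus strand gene) had a median of 2.33, from 1.55 in the B6 male to 3.72 in the 129 female, and strain was not called (limma F test, adjusted p = 0.250). The female and male differed by as much as the strains did, with 3.72 and 2.59 in 129, 1.98 and 3.38 in NZO and 2.55 and 3.56 in PWK. A region in intron 2, 14.3 kb into the gene, was as high as the promoter, with a median of 2.34 and a value above the promoter in 7 of 16 samples. It was highest in PWK, at 4.39 in the female and 2.81 in the male, but the 14 other samples reached 2.80 (limma F test, adjusted p = 0.184). Of its 7 shared regions the smallest adjusted p was that of the region at 73.1 kb in intron 7, with CAST highest (0.811 and 0.677) and AJ lowest (0.415 and 0.455) and an adjusted p of 0.105 (limma F test). Pik3r1 had the highest density of regions of the 8 genes, and no strain effect was detectable in its shared regions with 2 samples per strain.

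Akt1 and Akt2 encode the kinases on which the route converges. Akt1 had only its promoter region in all samples (chr12:112671061-112676097, minus strand gene), with scaled signals of 2.09 and 1.70 in 129, 0.631 and 0.836 in AJ, 1.73 and 1.06 in B6, 2.09 and 1.93 in CAST, 1.47 and 1.32 in NOD, 1.35 and 2.33 in NZO, 1.40 and 1.47 in PWK, and 1.01 and 0.921 in WSB, female first. Both AJ samples lay below the 14 others, with WSB next. Strain was called (limma F test, adjusted p = 0.0223), and AJ against the other 7 strains was -1.03 ± 0.23 (log2, SE, adjusted p = 0.0241). Of 7 alternative processings 4 kept the call of the F test. With the deposited mean signal its adjusted p was 0.336 (limma). The F test held in 11 of 16 fits with 1 sample left out and reached 0.0924 without the AJ female. The sequence before the start of Akt1 is shown since its promoter region was called for strain.

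Akt1 promoter, chr12:112674885-112675134, minus strand: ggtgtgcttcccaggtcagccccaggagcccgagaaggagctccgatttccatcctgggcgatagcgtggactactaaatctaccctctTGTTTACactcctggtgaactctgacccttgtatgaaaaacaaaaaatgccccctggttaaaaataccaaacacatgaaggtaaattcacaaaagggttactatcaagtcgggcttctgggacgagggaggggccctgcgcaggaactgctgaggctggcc

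Akt1 had 2 RefSeq promoter entries, of which that at the annotated start is printed. This sequence held a FoxO and FoxA core, which 2.60% of coding promoters held, and no GC box. Its G and C content was 52.0%, below that of Irs1 and Irs2. The strongest summit of any sample, that of the NZO male, lay 0.65 kb upstream of the annotated start, beyond the printed stretch. Over the samples the strongest summit lay at -663 to 535 bases from the start, with a median of -617 (negative is upstream).

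Akt2 differed in its intron. Its promoter region (chr7:27590939-27593764) ranged from 1.11 in the B6 male to 3.29 in the 129 female, and strain was not called (limma F test, adjusted p = 0.118). In intron 1, 16.8 kb into the gene, a region that also covers the start of another annotated transcript (chr7:27604600-27608685) had scaled signals of 1.10 and 1.33 in 129, 1.43 and 1.29 in AJ, 2.06 and 1.82 in B6, 2.92 and 2.74 in CAST, 2.09 and 1.81 in NOD, 1.51 and 1.33 in NZO, 2.15 and 1.53 in PWK, and 3.20 and 3.31 in WSB, female first. WSB was above all other samples, CAST followed without overlap with the rest, and 129, AJ and NZO were low.

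Akt2 +16.8 kb, chr7:27608228-27608427, plus strand: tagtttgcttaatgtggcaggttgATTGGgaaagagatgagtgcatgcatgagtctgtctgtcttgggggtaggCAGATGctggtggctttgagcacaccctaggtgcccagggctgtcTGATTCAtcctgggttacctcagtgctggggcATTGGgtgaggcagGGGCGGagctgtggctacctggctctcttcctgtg

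Strain was called at this region of Akt2 (limma F test, adjusted p = 0.00403), with 1.42 between WSB and 129 on the log2 scale. Against the other 7 strains, WSB was 0.91 ± 0.18 (adjusted p = 0.00917), CAST 0.69 ± 0.18 (adjusted p = 0.0149) and 129 -0.70 ± 0.18 (limma, adjusted p = 0.0499). The F test held in all 16 fits with 1 sample left out, and with the deposited mean signal in place of the summit its adjusted p was 0.120. The calls of WSB and CAST each held in 14 of those 16 fits and that of 129 in 3. The region exceeded the promoter of Akt2 in 7 of 16 samples. Its window held a NeuroD1 E-box, an AP-1 site, a GC box and 2 CCAAT boxes. A region 41.9 kb into Akt2 was listed in both samples of B6, CAST, PWK and WSB (0.214 to 0.471) and in none of 129, AJ, NOD and NZO. It was in the reproducible lists of CAST and WSB. Another over exon 14 was listed in the 6 wild-derived samples alone (0.110 to 0.344), and it was in no reproducible strain list.

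Foxo1 encodes the transcription factor that Akt restrains, on the plus strand of chromosome 3. Its promoter region (chr3:52267366-52270882), which also meets the annotated gene Gm20402, had scaled signals of 3.53 and 2.25 in 129, 1.80 and 1.87 in AJ, 1.98 and 1.75 in B6, 3.57 and 3.29 in CAST, 2.24 and 2.04 in NOD, 1.86 and 2.44 in NZO, 2.13 and 3.09 in PWK, and 1.63 and 1.83 in WSB, female first. The F test did not pass (limma, adjusted p = 0.0820), while CAST against the other 7 strains was called at 0.69 ± 0.21 (limma, adjusted p = 0.0324), in 12 of 16 fits with 1 sample left out. The other shared region, in intron 1 and 30.5 kb from the gene start (chr3:52295804-52299049), had values of 1.81 and 1.51 in CAST, above the 14 others at 0.551 to 1.33. There strain was called (limma F test, adjusted p = 0.0205), and CAST was 0.87 ± 0.21 above the other 7 strains (limma, adjusted p = 0.0104). Of 7 alternative processings 5 kept the call of the F test. With the deposited mean signal its adjusted p was 0.242 (limma). Without the CAST female the F test gave 0.0929. Both shared regions of Foxo1 were thus highest in CAST.

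Foxo1 +30.5 kb, chr3:52298775-52298974, plus strand: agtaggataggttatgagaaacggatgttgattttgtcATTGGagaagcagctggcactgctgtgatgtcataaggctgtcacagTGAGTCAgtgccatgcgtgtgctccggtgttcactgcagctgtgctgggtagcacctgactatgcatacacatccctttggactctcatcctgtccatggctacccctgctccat
Foxo1 promoter, chr3:52268087-52268336, plus strand: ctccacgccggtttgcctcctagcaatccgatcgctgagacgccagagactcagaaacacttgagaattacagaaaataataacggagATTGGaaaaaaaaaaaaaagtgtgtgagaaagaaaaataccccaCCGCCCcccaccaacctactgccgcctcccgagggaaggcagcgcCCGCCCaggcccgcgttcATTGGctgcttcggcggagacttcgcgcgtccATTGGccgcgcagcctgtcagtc

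The intronic window of Foxo1 held an AP-1 site, found in 16.2% of windows at shared regions away from gene starts, and a CCAAT box. The promoter held 3 CCAAT boxes and 2 GC boxes. Neither held a FoxO and FoxA core, and over the 39 shared regions 5 windows held one, against 6.3% of windows at all shared regions.

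To see which strain set a region apart, each strain was compared with the other 7 over the 39 regions, and 16 differences were called. CAST had 8 called regions of 39 (20.5%), against 20.6% of all shared regions. Of the 8, 6 were higher and 2 lower in CAST, whereas over all shared regions 2793 were higher and 5636 lower. WSB had 3 of 39 (background 5.81%), PWK 2 (11.1%), and 129, AJ and NZO 1 each (3.09%, 6.81% and 5.19%), by limma at an adjusted p under 0.05. B6 and NOD had none by limma (3.13% and 3.02% of all shared regions). The share of each strain was thus near that over all shared regions. No strain was high or low at all 39 regions, and the median difference lay between -0.08 in AJ and B6 and 0.25 in 129. For 129 the same median over all shared regions was 0.09. At the 8 promoter regions, however, 129 was above the mean of the other 7 strains at each (0.14 to 0.62). B6 (-0.55 to -0.02) and WSB (-0.58 to -0.06) were below it at each, and none of these differences was called. The same was not counted over other promoter regions.

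**Figure D5:**
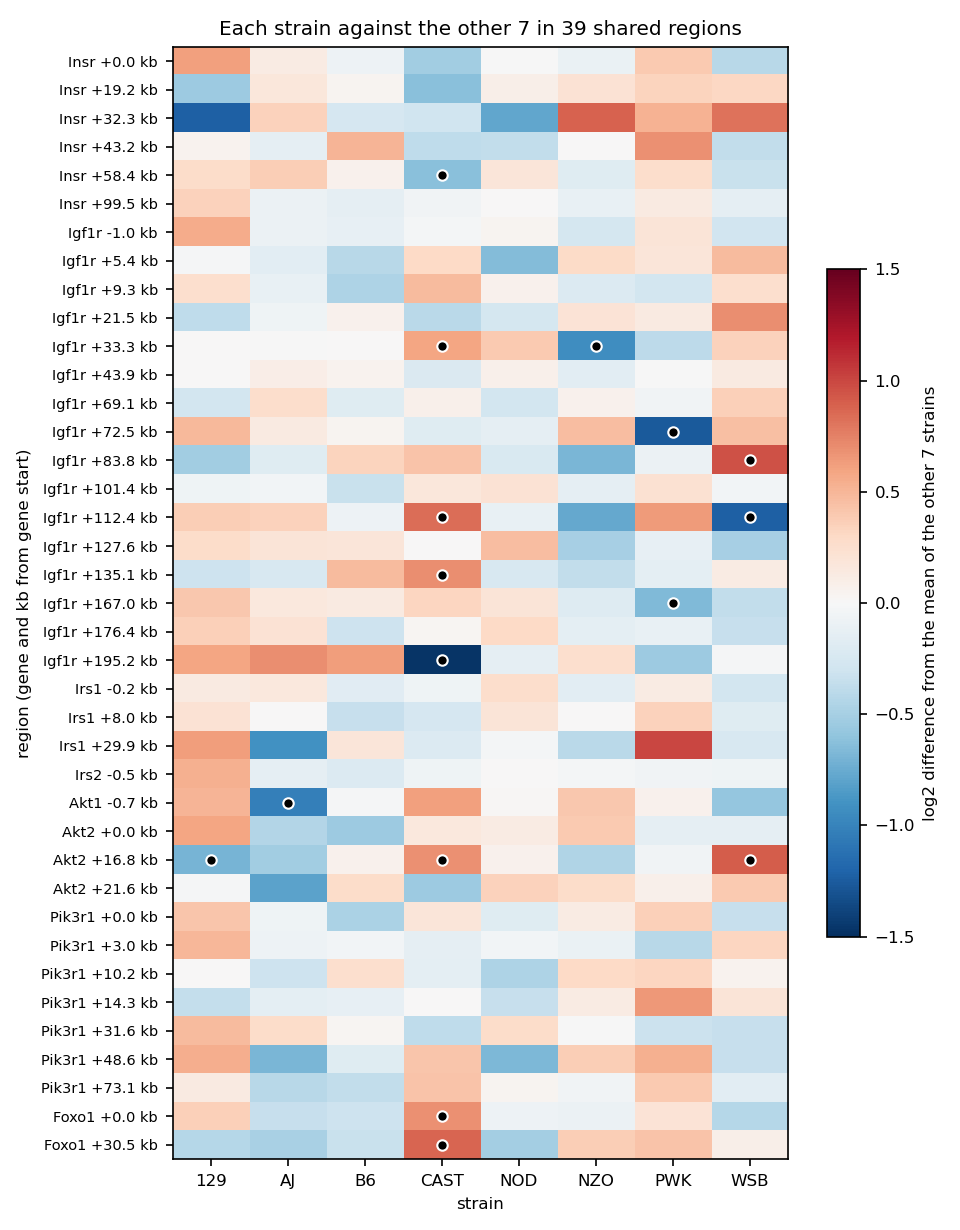
Log2 difference of each strain (columns) from the mean of the other 7 strains at the 39 shared regions (rows, by gene and kb from the gene start), red for higher and blue for lower, with a dot where limma's adjusted p was under 0.05. CAST carries 8 of the 16 dots, 6 higher and 2 lower, whereas over all shared regions its calls were 2793 higher and 5636 lower.

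Sex made no detectable difference. None of the 39 regions was called by limma, as was none (0%) of all 40940, of which 1621 had an unadjusted p under 0.05, and the female minus male difference ran from -0.25 to 0.32 on the log2 scale, with a median SE of 0.15. At an unadjusted p under 0.05 there was 1 region, Igf1r +33.3 kb, where the 8 females had a mean of 0.960 ± 0.233 (SD) and the 8 males one of 0.777 ± 0.243. Its limma p was 0.0142 before and 0.999 after adjustment. Each sex held 1 sample per strain.

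Nor were wild-derived and classical strains told apart in these genes. None of the 39 regions was called by limma on the 8 strain means, against 0.0342% of all shared regions, and 5 had an unadjusted p under 0.05, as had 4960 of all. The 5 were Igf1r +195 kb (-0.95 ± 0.30, adjusted p = 0.237), Akt2 +16.8 kb (0.72 ± 0.26, adjusted p = 0.304), Foxo1 +30.5 kb (0.65 ± 0.25, adjusted p = 0.332), Pik3r1 +31.6 kb (-0.49 ± 0.20, adjusted p = 0.360) and Igf1r +83.8 kb (0.60 ± 0.27, adjusted p = 0.399), as wild-derived minus classical on the log2 scale by limma. At Igf1r +195 kb the wild-derived samples had 0.629 ± 0.260 (SD, n = 6) and the classical samples 1.18 ± 0.283 (n = 10). The WSB values there lay within the range of the classical samples, while CAST and PWK lay below all 10.

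To describe how the promoter regions of the 8 genes varied among themselves, they were compared in pairs. Over the 16 samples, Pearson's r was above 0 in 27 of 28 pairs, with a median of 0.48. It ran from -0.02 for Akt1 and Insr to 0.79 for Foxo1 and Pik3r1 and for Akt2 and Irs2. The same share over pairs of all promoter regions was not computed, so these values do not set the 8 genes apart from others. Insr and Irs1 were the least like the others, while Pik3r1, Akt1, Akt2, Foxo1 and Irs2 were more alike. Among 9633 others, promoter regions with a pattern most like that of a member were those of Apcdd1 (r = 0.908) and Pex11g (0.902) for Insr, and of Ankrd13c (0.947) and Timm10 (0.932) for Igf1r. They were Pm20d2 (0.854) for Irs1, Paxbp1 (0.913) for Irs2, and Lrpap1 (0.961) and Il6st (0.960) for Pik3r1. They were U2af1 (0.944) and Eif2b2 (0.942) for Akt1, Otud3 and the shared region of Cct3 and Tsacc (0.929 each) for Akt2, and Sfxn5 (0.929) and Ndufb2 (0.926) for Foxo1. These values are over 16 samples that share the scaling of each list, and they describe the pattern alone.

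The other genes of the route were read by their promoter regions, from lists of 68 genes. Of these, 63 had a promoter region, 49 had one in all 16 samples and 10 of the 49 (20.4%) were called for strain by limma, near the 21.8% of all protein-coding promoter regions. Among the ligand genes Ins2 was called (median 0.773, adjusted p = 0.00496, CAST highest at 1.62 and AJ lowest at 0.492), while Ins1, the other insulin gene, was not (median 4.28, adjusted p = 0.0632, AJ 6.18 and B6 2.56). Igf1 was listed in 7 samples and Igf2 in none. Of the other receptors and binding proteins, 0 of 1 and 0 of 1 shared regions were called, Igf2r (adjusted p = 0.0956) and Igfbp7 (adjusted p = 0.397), all by limma's F test.

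Among the adaptor genes 2 of 6 were called. Grb14, whose product binds and inhibits the insulin receptor, had a mean of 1.79 in PWK and 0.324 in WSB (limma F test, adjusted p = 0.000168), the smallest adjusted p of all genes on the lists. Crk had 1.57 in NZO and 0.315 in AJ (limma F test, adjusted p = 0.0145). Of the PI3K list 1 of 6 was called, Pik3c3, at 7.31 in 129 and 2.94 in CAST (limma F test, adjusted p = 0.00617). Sgk1, a kinase related to Akt, was the only 1 of 3 called on its list, at 1.21 in NOD and 0.527 in NZO (limma F test, adjusted p = 0.0275).

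Of the genes that oppose the route, 3 of 8 were called, Ptprf and Inpp5k among them. Ptprf, a receptor phosphatase, had 1.79 in WSB and 0.461 in 129 (limma F test, adjusted p = 0.0225), and Inpp5k 2.42 in NZO and 0.665 in AJ (limma F test, adjusted p = 0.0243). Among the mTOR and TSC genes 1 of 11 was called, Tsc1, at 0.947 in NZO and 0.286 in NOD (limma F test, adjusted p = 0.0499), and among the targets 1 of 11, Bad, at 2.54 in CAST and 0.898 in B6 (limma F test, adjusted p = 0.0155). Pdx1, a transcription factor of beta cells, was not called (limma F test, adjusted p = 0.383).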

How the data were processed

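The authors trimmed reads with cutadapt 2.0, aligned them to mm10 with Bowtie2 2.3.4.1 and handled them with SAMtools and Picard 2.9.2, as named in the submitters' processing notes, and called peaks in each sample by MOSAiCS (false discovery rate 0.05), as their methods state. The deposited sample lists give for each peak a summit signal, used here, and a mean signal, used as an alternative. The deposited strain lists give irreproducible discovery rates as −log10 values, used at a rate of at most 0.05. The study's methods and results give a mean read depth over samples, but the lists hold no read total, so the depth behind each sample's values was not used here. A value of 0 says only that no peak passed the threshold.

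The 8 genes and all lists were chosen with earlier results of these data known. Peaks that overlap or touch were merged over chromosomes 1 to 19, and regions meeting a gene of GENCODE M21 or its 3 kb upstream were assigned to it. The highest summit signal per sample and region was taken as log2(signal + 1), and centred on the sample's median over the regions listed in all 16 samples. Fold changes are on this scale, which understates changes of low values. limma 3.58.1 (R 4.3.3) was fitted over all 40940 shared regions with strain and sex; strain class was tested on the 8 strain means. P-values were adjusted by Benjamini-Hochberg and called under 0.05. The counts test of the study was not run, since the lists hold signal. Each strain has 2 samples of different sex, and nothing in the labels gives further replicates, so p-values measure the spread between these samples. Named regions were the promoter region, each called region, the region of smallest adjusted p where none was called, and at most 2 strain-restricted regions per gene. The strongest regions of Insr, Igf1r, Irs1 and Pik3r1 away from the promoter were picked once their values were known. The fits were tested on simulated data. Alternatives covered centring, pseudocount, listing, summit or mean signal and each sample left out, and, chosen after seeing the data, each strain left out for single regions. Python 3.11.15, numpy 2.4.6, pandas 2.3.3 and pysam 0.24.0 were used. Sequences came from RefSeq (GRCm38.p6), with a promoter entry for 7 of the 8 genes. Some genes of the lists are not reported here.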

Additional observations from a re-analysis of the deposited data

Results flagged for a closer look

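In the WSB female 148 regions of the 8 genes were listed, apart from the other wild-derived samples at 82 to 106 (6 wild-derived samples in all). It also had the most regions in all, 160818, and per 1000 of its regions 0.920 were over the 8 genes, against 0.936 in the 129 female. The 129 female stood apart at 3 promoter regions, on the centred log2(signal + 1) scale. The sets held 8 females and 10 classical samples, the 129 female included. At Igf1r it had 2.29, against 1.20 to 1.63 in the other females and 1.20 to 1.77 in the other classical samples. At Irs2 it had 2.41, against 1.55 to 1.89 in the other females. At Foxo1 it had 1.80, against 0.80 to 1.27 in the other classical samples. These values were picked by the gap between the extreme sample and its nearest neighbour, divided by the range of the set, over 36 sets of samples (9 measures in 4 sets), and chance picks about 1 in 20. No explanation was tested.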

How the results depend on the processing

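The count of 9 regions called for strain was 20 without centring and 5 with the deposited mean signal, and 5 to 15 with 1 sample left out (5 without CAST female, CAST male or WSB female, 15 without NZO female). The 16 called strain differences became 44 and 8 under the same settings, and 6 to 28 with 1 sample left out (6 without either CAST sample, 8 and 10 without the WSB female or male, 28 without NZO female). Over all 40940 shared regions, 14616 were called for strain, against 25891 without centring and 11389 with the deposited mean signal. The called strain differences over all of them were 24037, 49749 and 17107 in the same order. These counts also fell without a CAST or WSB sample and rose without NZO female. The shifts were thus not particular to the 8 genes. The 39 shared regions became 20 with the 50000 strongest peaks per sample, 4 where peaks had to cover at least 0.5 of a region, and 20 with the strain lists. Insr +58.4 kb in CAST turned from -0.63 to 0.16 without centring (limma, adjusted p = 0.650). Of the values for single named regions, 645 kept their direction and their side of the threshold, 162 lost a call and 9 gained one. Sex and strain class gave 0 called regions of the 8 genes in all settings run. The cause of these changes was not tested. The sex test, with strain in the model, compares the female and male within each strain. With 2 samples per strain, small differences were not detectable.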
